A study of Mus musculus with 12 samples.

Results

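The 61 genes of Wnt signaling described here are the Wnt ligands, their receptors and their modulators. They were chosen by gene symbol among 21552 protein-coding genes, out of 25514 genes that could be identified in the count tables. By role they comprise 19 ligands, 2 genes for ligand secretion, 10 Frizzled receptors, 2 co-receptors, 11 secreted or surface inhibitors, 7 R-spondins and R-spondin receptors, 2 receptor ubiquitin ligases, 4 intracellular inhibitors and 4 transcription factors. RNA was sequenced from conditionally immortalized mouse proximal tubule (PT) cells to learn how loss of the type II TGF-β receptor (TβRII, gene Tgfbr2) changes the response of these cells to injury. There were 12 libraries in 4 groups of 3. The genotypes, H2ts6;Tgfbr2fl/fl and H2ts6;Tgfbr2-/-, are called TβRII flox/flox and TβRII-/- PT cells. Both came from crosses with the Immorto-mouse, whose T antigen sustains growth at low temperature, and were shifted to a temperature that inactivates it 5 days before use. Each genotype was kept in complete medium (untreated) or given H2O2, an oxidant, for 24 h in serum-free medium. The labels give the H2O2 dose as 200 mM, while the study's methods give it in micromolar units.

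The floxed cells came from male mice, and adenoviral Cre given in culture deleted the receptor, so each genotype is 1 cell line and its libraries do not stand for separate deletions. An effect of the deletion cannot be told apart from any other way in which these lines differ, nor can H2O2 from the lack of serum, and p-values measure only the spread between libraries. Counts per library ranged from 15870155 to 20857618 after each gene was represented by its most counted transcript. Normalized counts are scaled to a library of 17351835 counts. The targeted gene was still counted throughout: without H2O2, Tgfbr2 had 9248, 8369 and 7562 normalized counts in TβRII flox/flox and 6782, 6675 and 6358 in TβRII-/- PT cells, and with H2O2 it had 13275, 13918 and 13706 against 7221, 7311 and 7116. Values for a whole transcript cannot show whether the floxed exon is missing. The study's methods state that immunoblotting and RNA sequencing were used to verify the deletion. Exons on the opposite strand overlap 22.5% of Sfrp2, 18.1% of Fzd5, 16.1% of Fzd6 and 11.1% of Rnf43, and reads from the partner genes cannot be told apart if strand was not used in counting. Of the PT markers, Lrp2, which encodes megalin, stood between 10554 and 20339 normalized counts, whereas Slc34a1 and Hnf4a were at most 1.99 and Slc22a6 was 0 in all 12 libraries.

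Wnt proteins are secreted lipid-modified ligands. Porcupine adds the lipid, Wntless carries the ligand to the cell surface, and Frizzled receptors receive it together with the co-receptors Lrp5 and Lrp6, which stabilizes β-catenin so that it can act with Tcf and Lef factors on target genes. Sfrp proteins bind the ligands, and several Dkk proteins with their Kremen receptors act at the co-receptors. The ubiquitin ligases Rnf43 and Znrf3 remove Frizzled from the surface unless R-spondins, through Lgr receptors, restrain them. In the kidney the pathway is known for nephron formation and for its renewed activity after tubular injury and in fibrosis.

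Of the 61 members, 35 passed the filter on low counts and were tested, and 26 were not. Among the latter, Dkk1, Dkk2, Dkk4, Fzd10 and Wnt9b were not counted in any library. A further 12 had at most 3 counts in every library, namely Kremen2, Rspo1, Rspo4, Sfrp5, Wif1, Wnt1, Wnt3, Wnt3a, Wnt6, Wnt8a, Wnt10b and Wnt11. The highest count in any library was 4 for Sfrp4, 5 for Nkd1, Rspo2 and Wnt8b, 6 for Lef1 and Wnt2b, 8 for Fzd9, 14 for Lgr5 and 20 for Rspo3. At these counts most differences would not be detectable. Rspo3, an R-spondin, had 0, 0 and 1 counts in TβRII flox/flox and 7, 5 and 4 in TβRII-/- PT cells when untreated, and 0, 1 and 0 against 15, 20 and 9 with H2O2. The libraries of TβRII-/- PT cells thus lay above those of TβRII flox/flox PT cells in either medium for this gene, which was singled out after its values were seen.

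Levels of different genes are compared as normalized counts per 1000 bases of transcript and per 1000000 counts (called per kb here). On this scale the secretion factor Wls (148 ± 8.41, mean ± SD, n = 3) and the ligand Wnt16 (111 ± 5.83) led in untreated TβRII flox/flox PT cells, followed by the receptor Fzd6 (44.7 ± 3.03). The next members, Wnt7b at 36.8, the co-receptor Lrp6 at 35.2, Lgr4 at 31.3 and Dkk3 at 30.3, each overlapped their neighbour in this order. The lower place of Lrp5, at 23.8, rests on a transcript of 8893 bases annotated as a target of nonsense-mediated decay. A coding Lrp5 transcript of 5169 bases had nearly the same normalized counts (3654 against 3669), so the place of Lrp5 depends on the transcript chosen. In untreated TβRII-/- PT cells the order of the leading genes was reversed, with Wnt16 at 164 ± 4.73 and Wls at 110 ± 3.44, and Wnt7b came next at 48.9 ± 2.30. At the low end, Wnt4 stood at 0.0906 and Wnt10a at 0 when TβRII flox/flox PT cells were untreated.

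**Figure D1:**
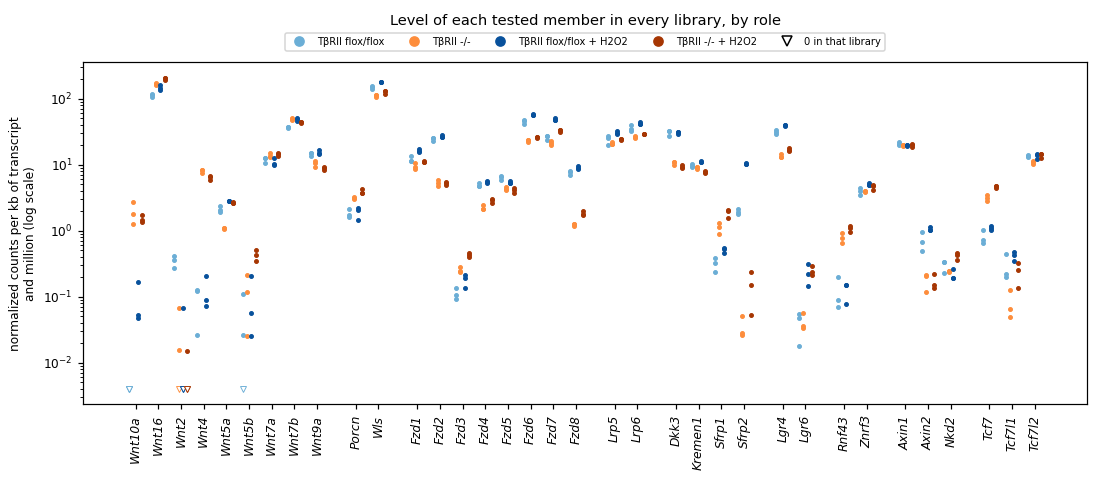
Level of the 35 tested members in each of the 12 libraries, in normalized counts per kb on a log axis, ordered by role. Points are libraries, colors are groups and open triangles mark libraries at 0, placed at the foot of the axis; Wls and Wnt16 are highest in every group, and Wnt10a, Wnt4 and Sfrp2 show the widest gaps between genotypes.

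Wnt16 made up most of the ligand mRNA in every library. The levels of all 19 ligands summed to 177 ± 7.94 in untreated TβRII flox/flox PT cells, of which Wnt16 held 62.3% to 63.1%, Wnt7b 20.3% to 21.7%, Wnt9a 8.14% to 8.24% and Wnt7a 6.30% to 6.95%. In untreated TβRII-/- PT cells the sum was 248 ± 9.71 and Wnt16 held 65.2% to 66.8%, while Wnt4 went from at most 0.0720% to between 3.13% and 3.38%. Wnt16 held 63.3% to 67.6% in TβRII flox/flox PT cells with H2O2 and 71.0% to 73.3% in TβRII-/- PT cells with H2O2. The 10 Frizzled receptors summed to 126 ± 9.17 in untreated TβRII flox/flox and 67.3 ± 3.52 in untreated TβRII-/- PT cells, and to 169 ± 6.35 and 83.7 ± 2.49 with H2O2. Fzd6 was the most abundant receptor in 3 groups, at 33.4% to 35.6% of the sum, and Fzd7 in TβRII-/- PT cells with H2O2, at 37.9% to 39.7%. The sums are given as a description, without a test.

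**Figure D2:**
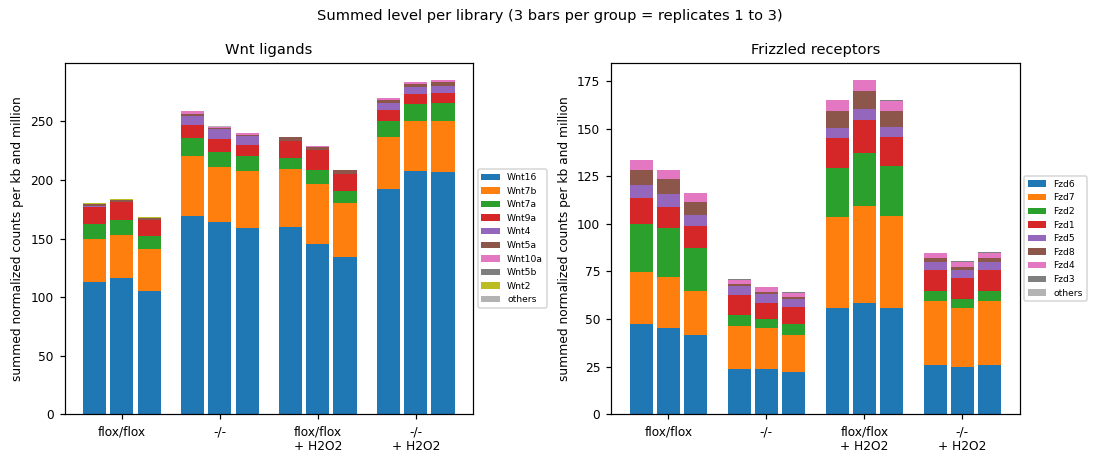
Summed level of the Wnt ligands (left) and Frizzled receptors (right) in each library, in normalized counts per kb, stacked by gene. Bars are libraries in 4 groups of 3; Wnt16 is the broadest ligand band throughout, and the receptor bars of TβRII-/- PT cells (64.0 to 71.0 untreated) lie below those of TβRII flox/flox PT cells (116 to 134 untreated).

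The first comparison asked how the genotypes differ without injury. In untreated TβRII-/- PT cells 7 members rose, among them the ligands Wnt4 and Wnt10a, the ubiquitin ligase Rnf43, the transcription factor Tcf7 and the inhibitor Sfrp1. Another 11 fell, including Sfrp2 and Dkk3 of the inhibitor group, 4 Frizzled receptors, the R-spondin receptor Lgr4 and the feedback gene Axin2. The 18 called members were 51.4% of the 35 tested, against 28.0% of all 12971 genes tested, of which 16.3% rose and 11.8% fell. A call needed an adjusted p (Benjamini-Hochberg) under 0.05 over all genes in edgeR's quasi-likelihood test together with a fold change of at least 1.5. The median log2 difference of the tested members was -0.29, beside 0.00848 for all genes tested. The other 17 tested members did not pass, although without the fold limit 29 members had an adjusted p under 0.05, as did 64.7% of all genes.

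Among the ligands, 2 rose and 2 fell of 9 tested, 44.4% beside 28.0% of all genes. Wnt4, which drives the mesenchyme-to-epithelium transition of the forming nephron, had 2.10, 10 and 9.68 normalized counts in untreated TβRII flox/flox and 651, 667 and 603 in untreated TβRII-/- PT cells. All TβRII-/- libraries lay far above all TβRII flox/flox libraries, and the difference was 87.5-fold (log2 6.45 ± 0.19 SE, adjusted p = 5.18e-24). Wnt10a, a canonical ligand, was 0, 0 and 0 in untreated TβRII flox/flox and 117, 53.2 and 76.6 in untreated TβRII-/- PT cells (adjusted p = 1.98e-12). Against a floor of 3 normalized counts per library this was at least 27.4-fold higher. Wnt2 had 22.1, 16.7 and 25.8 normalized counts in TβRII flox/flox and 4.18, 0.968 and 0 in TβRII-/- PT cells, so it was low in both lines and did not overlap. It fell by 3.61 ± 0.63 on the log2 scale (adjusted p = 9.35e-06), and the ratio of the summed counts, 60 against 5, was 13.1 with a 95% counting interval of 5.31 to 41.8.

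Wnt5a, the main noncanonical ligand, had 290, 255 and 243 normalized counts in TβRII flox/flox and 135, 138 and 130 in TβRII-/- PT cells, 1.95-fold lower without overlap (adjusted p = 7.31e-10). The abundant ligands stayed under the fold limit. Wnt16 differed by log2 0.56 ± 0.06, Wnt7b by 0.41 ± 0.06, Wnt7a by 0.21 ± 0.09 and Wnt9a by -0.50 ± 0.08. Of the secretion genes, Porcn, the acyltransferase of the ligands, had 78.9, 96.8 and 72.1 normalized counts in TβRII flox/flox and 146, 135 and 144 in TβRII-/- PT cells. It rose 1.71-fold (adjusted p = 4.06e-05). All 7 of its transcripts were higher, but they share reads and so are not separate evidence. The 1.71-fold value rests on the most counted transcript of Porcn, which is annotated as a target of nonsense-mediated decay. Wls differed by log2 -0.42 ± 0.06.

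The Frizzled receptors were mostly lower in TβRII-/- PT cells: of 8 tested, 4 fell and Fzd3 rose, 62.5% beside 28.0% of all genes. The remaining 3 (Fzd1, Fzd5 and Fzd7) had log2 differences of -0.35, -0.57 and -0.28. Fzd8 had 821, 803 and 716 normalized counts in TβRII flox/flox and 130, 121 and 129 in TβRII-/- PT cells, 6.16-fold lower (adjusted p = 3.57e-22). Fzd2 had 1601, 1617 and 1424 against 365, 301 and 334, 4.65-fold lower (adjusted p = 1.94e-22). For both receptors every TβRII-/- library was far below every TβRII flox/flox library. Fzd4, which also serves the ligand norrin in vessels, fell 2.19-fold from 573 ± 39.0 to 262 ± 23.7 normalized counts (adjusted p = 2.37e-13). Fzd6, the most abundant of the family, fell 1.92-fold from 3358 ± 228 to 1745 ± 74.5 (adjusted p = 4.31e-15). Fzd3, a receptor known from planar cell polarity, moved the other way, with 29.5, 20 and 23.7 normalized counts in TβRII flox/flox and 62.7, 54.2 and 52.6 in TβRII-/- PT cells, 2.30-fold higher without overlap (adjusted p = 2.78e-05). The co-receptors Lrp5 and Lrp6 differed by log2 -0.18 ± 0.07 and -0.42 ± 0.07 and did not pass.

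The secreted inhibitors moved in opposite directions. Sfrp2, which binds Wnt ligands, had 66.3, 80.1 and 72.1 normalized counts in untreated TβRII flox/flox and 1.05, 0.968 and 1.91 in untreated TβRII-/- PT cells. It was nearly absent from every TβRII-/- library and fell by 5.66 ± 0.37 on the log2 scale (adjusted p = 7.35e-15). The ratio of the summed counts, 202 against 4, was 55.1 with a 95% counting interval of 21.2 to 204. The related Sfrp1 had 30.5, 18.9 and 25.8 normalized counts in TβRII flox/flox and 72.2, 106 and 90.9 in TβRII-/- PT cells, 3.56-fold higher without overlap (adjusted p = 6.99e-09). Dkk3, a divergent Dickkopf protein and by level the leading gene of the inhibitor group, had 3336, 3342 and 2775 against 1137, 1129 and 1024. It was 2.87-fold lower (adjusted p = 4.17e-19). Whether Dkk3 inhibits Wnt signaling in these cells was not tested. Kremen1, the receptor of Dickkopf proteins, differed by log2 -0.11 ± 0.07.

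Lgr4, the main R-spondin receptor in these cells by level, had 2853, 3021 and 2623 normalized counts in TβRII flox/flox and 1171, 1288 and 1173 in TβRII-/- PT cells. It was 2.34-fold lower without overlap (adjusted p = 2.02e-17). Lgr6 had 2.10, 5.56 and 6.45 against 4.18, 3.87 and 6.70, and the groups overlapped. Of the ubiquitin ligases that remove Frizzled from the surface, Rnf43 had 5.26, 6.68 and 15.1 normalized counts in TβRII flox/flox and 57.5, 49.4 and 68.0 in TβRII-/- PT cells. It rose 6.41-fold without overlap (adjusted p = 4.93e-09). The 6 of its 9 transcripts with enough counts were all higher, but they share reads and so are not separate evidence. Its paralog Znrf3 had means of 336 ± 44.2 and 336 ± 9.79 and did not pass (adjusted p = 0.97).

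Inside the cell, Axin2, a scaffold of the β-catenin destruction complex and a widely used target of the pathway, had 71.5, 36.7 and 49.5 normalized counts in TβRII flox/flox and 15.7, 8.71 and 15.3 in TβRII-/- PT cells. It was 3.97-fold lower without overlap (adjusted p = 5.53e-07), whereas its constitutive relative Axin1 differed by log2 -0.08 ± 0.06. Nkd2, which binds Dishevelled, had 23.1, 23.4 and 16.1 against 16.7, 16.5 and 17.2 and overlapped. Of the transcription factors, Tcf7 had 31.6, 28.9 and 45.2 in TβRII flox/flox and 136, 126 and 151 in TβRII-/- PT cells, 3.90-fold higher without overlap (adjusted p = 6.41e-12). Tcf7l1, which mostly represses, had 11.6, 25.6 and 12.9 against 7.32, 3.87 and 2.87, low in both lines and 3.52-fold lower (adjusted p = 0.00173). Tcf7l2, at 943 ± 28.8 against 769 ± 42.5 the most abundant of the factors, differed by log2 -0.29 ± 0.07 and did not reach the fold limit. Axin2 and Rnf43 are both known as direct targets of β-catenin, and they moved in opposite directions.

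**Figure D3:**
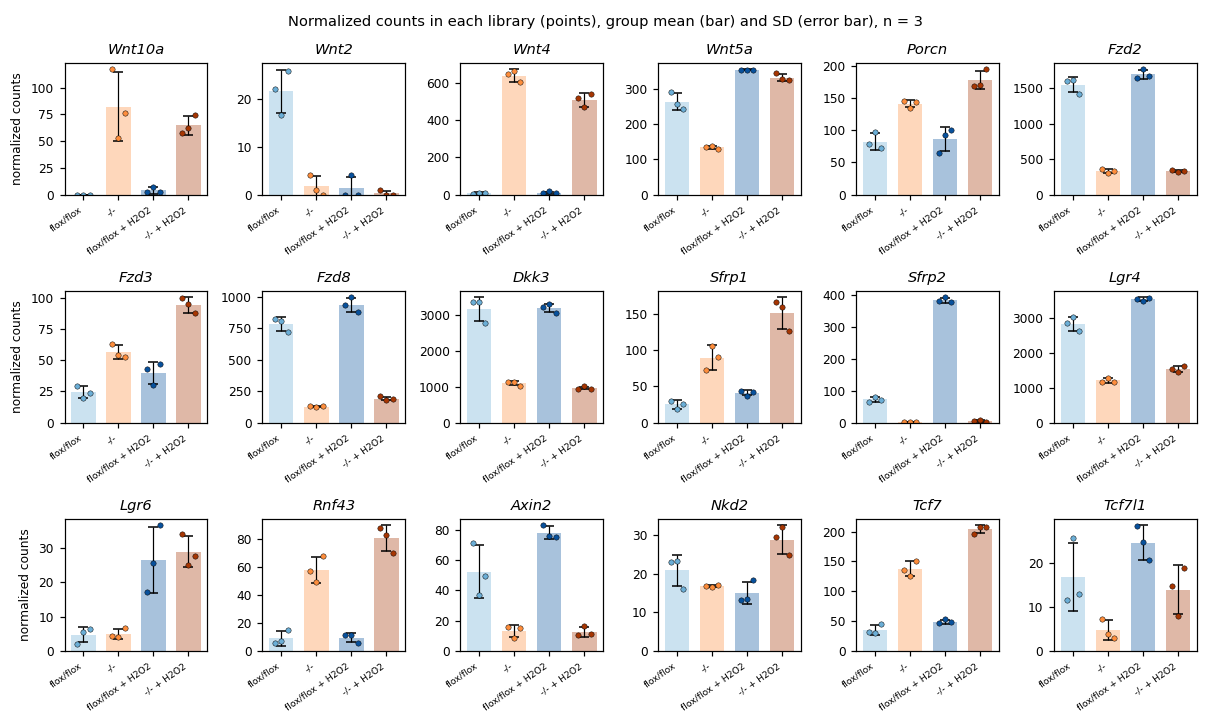
Normalized counts of 18 members in each library on linear axes that start at 0, with points for libraries, bars for group means and error bars for the SD (n = 3). Wnt4 and Rnf43 are high in the TβRII-/- groups, Fzd2, Fzd8, Dkk3 and Lgr4 are low there, and Sfrp2 is highest in TβRII flox/flox PT cells with H2O2, at 379 to 393.

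Markers of cell identity moved with the genotype as well. The summed level of the 6 pan-epithelial markers, all of which rose, was 275 to 302 per kb in untreated TβRII flox/flox and 745 to 797 in untreated TβRII-/- PT cells. Epcam had 0, 1.11 and 0 normalized counts against 729, 641 and 621, and the E-cadherin gene Cdh1 1.05, 1.11 and 3.23 against 1118, 1046 and 1171. The 11 PT markers summed to 265 to 303 and 219 to 232, and 6 of the 7 tested fell. Of all genes tested, 16.3% rose and 11.8% fell in this comparison. The 8 fibroblast and pericyte markers summed to 0.557 to 0.692 and 0.158 to 0.289, with Lum and Thy1 at 0. Of the 3 tested, Pdgfrb (log2 -2.74) and Col1a1 (-1.56) fell and Dcn (1.87) rose. The other marker sums were low but higher in untreated TβRII-/- than in untreated TβRII flox/flox PT cells, at 8.96 to 9.29 against 4.38 to 4.90 for podocytes, 9.89 to 10.9 against 5.65 to 6.22 for leukocytes, 4.56 to 5.70 against 1.24 to 1.37 for endothelium and 13.8 to 15.4 against 9.11 to 9.38 for the distal nephron. In each of these lists 1 gene was called higher, namely Podxl (log2 3.83), Cd68 (0.78), Kdr (1.97) and Gata3 (1.38). Nphs1, Adgre1, Cd3e, Aqp2 and Calb1 were at 0 in all 12. Tfcp2l1 of the distal list, at 1348 ± 21.7 and 1989 ± 94.5 normalized counts, differed by log2 0.56, under the fold limit. With H2O2 the distal sums overlapped, at 9.43 to 10.9 in TβRII flox/flox and 10.2 to 10.6 in TβRII-/- PT cells. Those of podocytes, leukocytes and endothelium were again higher in TβRII-/- PT cells. The part of these shifts in the Wnt differences was not tested, and in bulk RNA fewer cells of a type cannot be told apart from less RNA per cell.

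The next comparison repeated that of the genotypes in H2O2 and serum-free medium. In TβRII-/- PT cells 9 of the 35 tested members rose and 10 fell, 54.3% beside 30.7% of all genes tested, of which 17.3% rose and 13.4% fell. At an adjusted p under 0.05 alone these were 29 members, and 66.4% of all genes. Called in the same direction as without H2O2 were 16 members. The matching share of all genes was not computed, and the same lines were compared both times. Wnt4 had 7.10, 16.5 and 5.73 normalized counts in TβRII flox/flox and 520, 470 and 543 in TβRII-/- PT cells, 50.9-fold higher (adjusted p = 7.44e-23). Wnt10a was 2.03, 7.23 and 2.29 against 57.2, 62.1 and 74.6, 16.1-fold higher (adjusted p = 6.16e-10). Sfrp2 was 381, 393 and 379 against 5.54, 8.65 and 1.99, 66.7-fold lower (adjusted p = 1.29e-22). For all 3 genes the groups stayed far apart.

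Rnf43 (8.4-fold), Tcf7 (4.16-fold), Sfrp1 (3.68-fold), Fzd3 (2.37-fold) and Porcn (2.07-fold) were again higher in TβRII-/- PT cells with H2O2. Axin2 (6.10-fold), Fzd2 (5.09-fold), Fzd8 (4.90-fold), Dkk3 (3.31-fold), Lgr4 (2.31-fold), Fzd6 (2.22-fold), Fzd4 (1.90-fold) and Tcf7l1 (1.83-fold) were again lower. With H2O2 and not without it, Nkd2 (1.95-fold higher, adjusted p = 0.00478), Wnt5b (4.33-fold higher, adjusted p = 0.00131) and Wnt9a (1.74-fold lower, adjusted p = 4.77e-11) passed. Wnt5b, a noncanonical ligand, had 1.01, 8.26 and 2.29 normalized counts in TβRII flox/flox and 13.8, 17.3 and 20.9 in TβRII-/- PT cells with H2O2. Wnt2 and Wnt5a passed without H2O2 and not with it. Of these 5 members the difference between the genotype effects with and without H2O2 passed its own test for Wnt5a, with adjusted p = 3.60e-05, and not for Wnt2 (0.773), Wnt5b (0.78), Wnt9a (0.0645) or Nkd2 (0.0533). The call of Tcf7l1 was lost in DESeq2 (adjusted p = 0.104), on summed transcripts (adjusted p = 0.0548), and without replicate 1 or 2 of TβRII flox/flox PT cells with H2O2 (adjusted p = 0.0981 and 0.0567) or of TβRII-/- PT cells with H2O2 (adjusted p = 0.0509 and 0.208). Fzd7, at log2 -0.58 ± 0.06, lay just under the fold limit here and was called in 12 of the 21 alternatives, 1 of which drops that limit.

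**Figure D4:**
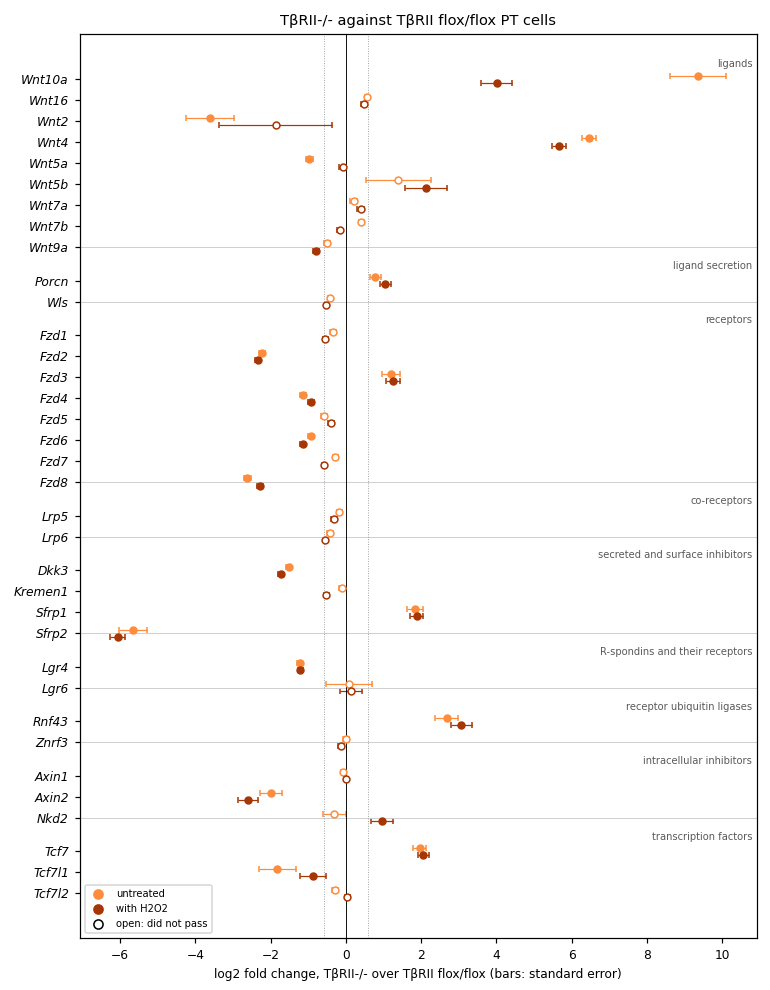
Log2 fold change of TβRII-/- over TβRII flox/flox PT cells for the 35 tested members, untreated (light) and with H2O2 (dark), by role; bars are standard errors, dotted lines the 1.5-fold limit and open circles members that were not called. Most pairs of circles lie side by side; the untreated value of Wnt10a is a fitted one against 3 libraries at 0 and is no bound, and Wnt5a moves from -0.97 to -0.09.

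The H2O2 comparisons asked how injury in serum-free medium changes the members within each genotype. In TβRII flox/flox PT cells 6 members rose and Wnt2 fell, 20% of those tested beside 8.24% of all genes tested, of which 5.68% rose and 2.56% fell. In TβRII-/- PT cells 10 members rose and 0 fell by edgeR, 28.6% beside 8.33% of all genes, of which 4.56% rose and 3.76% fell. DESeq2 also called 0 lower. At an adjusted p under 0.05 by edgeR, 5 members were lower in TβRII-/- PT cells with H2O2, by changes under the fold limit. Without the fold limit 21 and 25 members had an adjusted p under 0.05, beside 41.6% and 39.6% of all genes. Lgr6, Sfrp1, Sfrp2, Fzd3 and Fzd7 rose in both. The median log2 change of the tested members was 0.35 in TβRII flox/flox and 0.24 in TβRII-/- PT cells, beside 0.00683 and 0.0183 for all genes.

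Lgr6, an R-spondin receptor, went from 2.10, 5.56 and 6.45 to 17.2, 25.8 and 36.7 normalized counts when TβRII flox/flox PT cells received H2O2 (5.50-fold, adjusted p = 3.36e-05). In TβRII-/- PT cells it went from 4.18, 3.87 and 6.70 to 34.2, 25.2 and 27.8 (5.73-fold, adjusted p = 8.02e-06). It was low in all untreated libraries and higher in all 6 with H2O2, at nearly the same level in both genotypes. Sfrp2 went from 66.3, 80.1 and 72.1 to 381, 393 and 379 in TβRII flox/flox PT cells (5.28-fold, adjusted p = 1.67e-15). In TβRII-/- PT cells it went from 1.05, 0.968 and 1.91 to 5.54, 8.65 and 1.99, which was called as well (4.0-fold, adjusted p = 0.016) on 4 against 19 summed counts, a ratio of 4.29 with a 95% counting interval of 1.42 to 17.3. That call was lost without replicate 2 of the untreated (adjusted p = 0.0593) or of the H2O2-treated TβRII-/- PT cells (adjusted p = 0.153).

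Fzd7 went from 2166, 2108 and 1849 to 3753, 3970 and 3773 normalized counts when TβRII flox/flox PT cells received H2O2 (1.88-fold, adjusted p = 7.13e-13). In TβRII-/- PT cells it went from 1785, 1687 and 1556 to 2649, 2407 and 2621 (1.53-fold, adjusted p = 7.19e-09), near the fold limit, and without replicate 3 of untreated TβRII-/- PT cells its log2 change of 0.56 was under it. In neither genotype did treated and untreated libraries overlap. Sfrp1 rose 1.63-fold in TβRII flox/flox PT cells, to 43.6, 37.2 and 42.4, and 1.69-fold in TβRII-/- PT cells, to 167, 160 and 126. Fzd3 rose 1.62-fold, to 42.6, 30.0 and 47.0, and 1.67-fold, to 99.7, 95.1 and 87.5. In TβRII flox/flox PT cells the Sfrp1 call was lost without replicate 2 of the untreated (adjusted p = 0.115) or replicate 1 or 3 of the treated libraries (adjusted p = 0.0644 and 0.0546). That of Fzd3 was lost without replicate 2 or 3 of the untreated (adjusted p = 0.0892 and 0.0594) or replicate 1 or 3 of the treated libraries (adjusted p = 0.065 and 0.0964).

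Called in TβRII flox/flox and not in TβRII-/- PT cells, Wnt2 fell from 22.1, 16.7 and 25.8 to 0, 4.13 and 0 normalized counts (log2 -3.82 ± 0.67, adjusted p = 2.87e-05). The counts, 60 against 4, gave a ratio of 15.3 with a 95% counting interval of 5.66 to 57.8. Wnt10a went from 0, 0 and 0 to 2.03, 7.23 and 2.29 (adjusted p = 0.013), at least 1.28-fold higher against the floor of 3, and was not called without replicate 2 of the treated libraries (adjusted p = 0.0855). It remained more than an order of magnitude below its level in TβRII-/- PT cells. Axin2 stood at 83.2, 76.4 and 75.6 with H2O2 against 71.5, 36.7 and 49.5 without, above all untreated libraries but 1.49-fold, just under the fold limit (adjusted p = 0.0352).

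Called in TβRII-/- and not in TβRII flox/flox PT cells, Wnt5a rose from 135, 138 and 130 to 343, 326 and 325 normalized counts (2.46-fold, adjusted p = 2.82e-12). Wnt5b rose from 1.05, 4.84 and 8.62 to 13.8, 17.3 and 20.9 (3.44-fold, adjusted p = 0.00672). Neither gene's treated libraries overlapped the untreated ones. Tcf7l1 rose from 7.32, 3.87 and 2.87 to 14.8, 7.86 and 18.9 (2.87-fold, adjusted p = 0.0149), and Nkd2 from 16.7, 16.5 and 17.2 to 29.5, 32.2 and 24.9 (1.72-fold, adjusted p = 0.0264). Fzd8 rose from 130, 121 and 129 to 208, 178 and 188 (1.51-fold, adjusted p = 4.11e-05), with no overlap. The difference from TβRII flox/flox PT cells did not pass its test for Wnt2 (adjusted p = 0.773), Wnt5b (0.78), Tcf7l1 (0.374) or Fzd8 (0.0996).

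Several of these calls were close. Fzd8 missed the fold limit in 10 of the 21 alternatives, at log2 0.53 to 0.58, among them those that left out any replicate of either TβRII flox/flox group, replicate 2 of untreated or replicate 1 of H2O2-treated TβRII-/- PT cells. Nkd2 was not called by DESeq2 (adjusted p = 0.0869) or without any replicate of untreated TβRII-/- PT cells (adjusted p = 0.0563 to 0.0672) or replicate 1 or 2 of the treated ones (adjusted p = 0.0641 and 0.104). Tcf7l1 was not called without replicate 2 or 3 of the untreated (adjusted p = 0.0564 and 0.0732) or replicate 3 of the treated TβRII-/- PT cells (adjusted p = 0.0884).

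**Figure D5:**
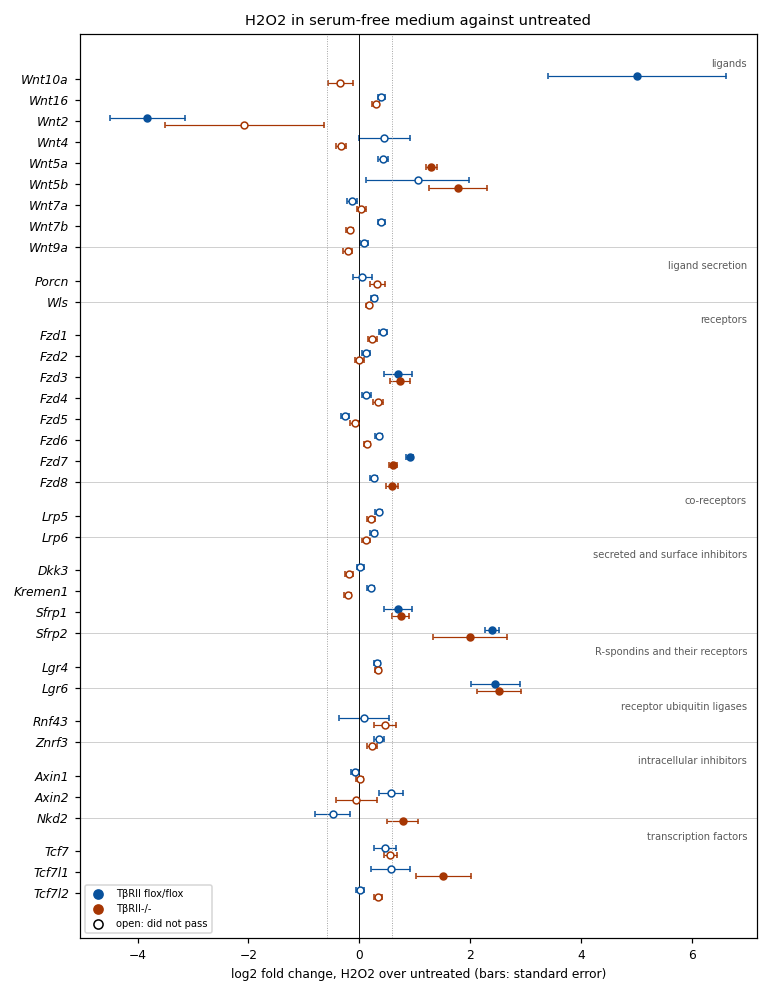
Log2 fold change with H2O2 in serum-free medium over untreated for the 35 tested members in TβRII flox/flox (blue) and TβRII-/- PT cells (brown), by role; bars are standard errors, dotted lines the 1.5-fold limit and open circles members that were not called. Lgr6 and Sfrp2 lie at or above 2.0 in both genotypes, and Wnt5a lies apart at 0.43 and 1.30; the Wnt10a value in TβRII flox/flox PT cells is fitted against 3 libraries at 0 and is no bound.

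Whether the H2O2 response depended on genotype was tested with the interaction in the same fit. Only 2 members, Wnt5a and Wnt10a, were called, 5.71% of those tested beside 2.36% of all genes, of which 0.640% were higher and 1.72% lower. Without the fold limit 6 members had an adjusted p under 0.05, and 10.2% of all genes. Wnt5a changed by log2 0.43 ± 0.09 in TβRII flox/flox and 1.30 ± 0.10 in TβRII-/- PT cells, a difference of 0.87 ± 0.13 (adjusted p = 3.60e-05). With H2O2 its level was 354, 352 and 354 normalized counts in TβRII flox/flox and 343, 326 and 325 in TβRII-/- PT cells, so the gap seen without H2O2 had closed to log2 -0.09 ± 0.09. For Wnt10a the difference was -5.35 ± 1.61 (adjusted p = 0.03). That fitted value rests on the TβRII flox/flox libraries at 0 and is no bound, and the call was lost without replicate 2 or 3 of untreated (adjusted p = 0.0703 and 0.0613) or replicate 2 of H2O2-treated TβRII flox/flox PT cells (adjusted p = 0.147). Nkd2 rose in TβRII-/- PT cells and stood at log2 -0.48 ± 0.32 in TβRII flox/flox PT cells, and its difference of 1.27 ± 0.43 narrowly missed (adjusted p = 0.0533).

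The tested members called in no comparison under the main settings were Wnt7a, Wnt7b, Wnt16, Wls, Fzd1, Fzd5, Lrp5, Lrp6, Kremen1, Znrf3, Axin1 and Tcf7l2. They include the leading ligands, the cargo receptor and the co-receptors. Their log2 differences between untreated genotypes ran from -0.57 for Fzd5 to 0.56 for Wnt16, and for both genes the libraries of the genotypes did not overlap. Some lay close to the fold limit. With that limit kept, the interaction of Wnt7b was called in 10 alternatives and the untreated genotype difference of Fzd5 in 3. The genotype difference with H2O2 was called in 3 for Lrp6 and in 2 for Fzd1.

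Other genes of the pathway, taken from 4 lists, moved as follows between untreated genotypes. The lists were chosen with earlier results of these data known, so their shares beside all genes are a description. Of 33 tested genes that act on β-catenin inside the cell, 5 were called higher and 2 lower in TβRII-/- PT cells, and the median log2 difference was -0.05. These 7 were 21.2% of the list, below the 28.0% of all genes tested. The largest rises were those of Pygo1 (log2 2.13), a cofactor of β-catenin, and of the corepressors Tle4 (1.13) and Tle2 (1.12), and Bcl9l (-0.80) and Amer1 (-0.78) fell. Ctnnb1, the gene of β-catenin, differed by log2 -0.18 ± 0.06, with 8034 ± 200 and 7086 ± 61.7 normalized counts. Of 17 tested genes for other Wnt receptors and planar cell polarity, 3 rose and 4 fell, 41.2% beside the same 28.0%. Ror1, a receptor of Wnt5a, had 815, 716 and 645 normalized counts in TβRII flox/flox and 92.0, 95.8 and 80.4 in TβRII-/- PT cells, and fell by 3.02 ± 0.10 on the log2 scale (adjusted p = 1.26e-22). Among polarity genes Celsr2 (-2.38) and Prickle2 (-1.61) fell, while Celsr1 (2.79), Prickle3 (2.70) and Ptk7 (1.65) rose. Prickle3 was low in both lines, at means of 3.20 in TβRII flox/flox and 21.5 normalized counts in TβRII-/- PT cells.

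Of 10 tested extracellular modulators, 2 rose and 6 fell, 80% beside 28.0% of all genes. Gpc4, a glypican, fell by 1.17 on the log2 scale, Adgra2, a partner of Wnt7 signaling, by 1.11, and Tspan12, a partner of Fzd4, by 1.09. The antagonists Sostdc1 (log2 4.55) and Draxin (1.40) rose, both at low levels, Sostdc1 from 0, 1.11 and 0 to 9.41, 9.68 and 14.4 normalized counts. Of 9 tested genes known as β-catenin targets, 3 rose and 3 fell, 66.7% beside 28.0% of all genes, and the median was -0.00. The cyclin D1 gene Ccnd1 had 1585, 1547 and 1735 normalized counts in TβRII flox/flox and 9554, 9244 and 9584 in TβRII-/- PT cells (log2 2.54 ± 0.07, adjusted p = 9.50e-26), and it rose with Rnf43 and Tcf7. Axin2, Bambi (log2 -1.63) and Apcdd1 (-0.89) fell. Bambi was low in both lines, at means of 11.6 in TβRII flox/flox and 3.65 normalized counts in TβRII-/- PT cells. The list shares 8 of its 17 genes with the members, Axin2, Rnf43 and Tcf7 among them. Apcdd1 was counted among the extracellular modulators as well.

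With H2O2 the genotypes differed in these lists by 5 rises and 1 fall inside the cell, 6 and 5 for receptors and polarity, 1 and 6 for extracellular modulators and 3 and 3 for targets. Against 30.7% of all genes these were 18.2%, 64.7%, 70% and 66.7% of the tested genes of each list. H2O2 itself raised 3 and lowered 0 genes inside the cell in TβRII flox/flox PT cells by edgeR, where 17 had an adjusted p under 0.05 at any size, and raised 2 and lowered 0 in TβRII-/- PT cells, where 15 had. These were 9.09% and 6.06% of the list, beside 8.24% and 8.33% of all genes. Ccnd1 fell in both, by 1.51 and 0.92 on the log2 scale, the only target called. Of the genes for receptors and polarity, 2 rose and 1 fell in TβRII flox/flox (17.6%) and 3 rose and 1 fell in TβRII-/- PT cells (23.5%). The formin gene Daam2 fell in both, by 1.63 and 1.72 on the log2 scale. Ptk7 (log2 1.28) and Prickle3 (1.90) rose in TβRII flox/flox PT cells, and Celsr2 (0.76), Prickle1 (1.61) and Ankrd6 (1.27) in TβRII-/- PT cells. Prickle3 and Prickle1 were low, with means going from 3.20 to 12.5 and from 4.57 to 14.5 normalized counts. Of the extracellular modulators, Igfbp4 (1.52), Adgra2 (1.16) and Reck (0.60) rose in TβRII flox/flox PT cells, 30% of the 10 tested, and Draxin (-0.89) fell in TβRII-/- PT cells, 10% of them.

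For the members whose upstream sequence was at hand, the 250 bases before the annotated start are shown for 2 that rose and 2 that fell in untreated TβRII-/- PT cells, chosen after their values were seen. They come from RefSeq on GRCm38.p6, at chr4:137277385-137277634 for Wnt4, chr11:87662837-87663086 for Rnf43, chr7:89404116-89404365 for Fzd4 and chr2:109917397-109917646 for Lgr4, all on the + strand and 5′ to 3′. Capitals mark CpG dinucleotides, the sites of DNA methylation, which was not measured here.
Wnt4: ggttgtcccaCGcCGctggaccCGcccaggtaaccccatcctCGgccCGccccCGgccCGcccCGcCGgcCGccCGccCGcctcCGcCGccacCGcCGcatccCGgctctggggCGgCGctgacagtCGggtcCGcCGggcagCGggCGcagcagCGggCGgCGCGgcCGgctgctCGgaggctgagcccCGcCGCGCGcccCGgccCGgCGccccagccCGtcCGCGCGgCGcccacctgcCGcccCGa
Rnf43: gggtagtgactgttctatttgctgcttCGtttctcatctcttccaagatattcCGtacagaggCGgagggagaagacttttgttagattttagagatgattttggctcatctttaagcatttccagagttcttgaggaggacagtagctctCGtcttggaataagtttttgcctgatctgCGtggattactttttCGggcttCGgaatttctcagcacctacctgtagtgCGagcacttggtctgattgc
Fzd4: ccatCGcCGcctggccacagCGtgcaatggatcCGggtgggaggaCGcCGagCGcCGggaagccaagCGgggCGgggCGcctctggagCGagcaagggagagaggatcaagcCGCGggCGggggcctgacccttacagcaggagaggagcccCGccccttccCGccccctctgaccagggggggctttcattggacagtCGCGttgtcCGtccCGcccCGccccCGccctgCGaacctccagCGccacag
Lgr4: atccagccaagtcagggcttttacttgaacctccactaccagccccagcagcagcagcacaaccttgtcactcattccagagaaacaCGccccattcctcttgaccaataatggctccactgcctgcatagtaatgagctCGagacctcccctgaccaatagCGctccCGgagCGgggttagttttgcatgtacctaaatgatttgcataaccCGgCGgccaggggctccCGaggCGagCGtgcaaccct

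These windows hold 44 CpG dinucleotides for Wnt4, 8 for Rnf43, 25 for Fzd4 and 10 for Lgr4. The Wnt4 window has more than 99.5% of all 32851 promoters of this length, whose median is 6.0, while the median of the 49 windows found for 40 members is 16.0. Forms of the sequence that Tcf and Lef factors bind were searched on both strands. CTTTGAT was in 2 of the member windows (4.08%) and in 3.21% of all promoters. CTTTGTT was in 3 (6.12%) and in 5.03%. CTTTGAA was in 1 (2.04%) and in 4.46%. CTTTGTA was in 1 (2.04%) and in 3.20%. At least 1 of the 4 was in 6 of the 49 member windows (12.2%; Dkk1, Fzd7, Lef1, Tcf7l2, Wnt11 and Wnt5b) and in 14.8% of all promoters. Such a match is a description of letters in this window.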

How the data were processed

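Reads were trimmed by the authors (fastp), aligned with STAR (GRCm38.p6, GENCODE M23) and counted by featureCounts. The deposited values are raw counts per transcript, not normalized, and a read can be counted on several transcripts, so each gene was represented by its transcript with the highest total. Of 106332 transcripts, 104820 were matched to genes of GENCODE M39, and the other 1512 held 1.22% to 1.28% of the counts per library. Whether strand was used in counting is not given in the sources used here. In GENCODE M39 no member shares over 5% of its exons with a gene on its own strand.

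Counts were tested with edgeR 4.0.16 in R 4.3.3 (glmQLFit, glmQLFTest, TMM, filterByExpr), with all 12 libraries fitted together and 1 coefficient per group. Calls needed a Benjamini-Hochberg adjusted p under 0.05 over all 12971 genes and a fold change of 1.5. Standard errors of log2 changes were derived from the test, as the absolute log2 change divided by the square root of its F statistic. Levels between genes are per 1000 bases of transcript and 1000000 counts. Counting intervals are exact (Clopper-Pearson) and, like the floor of 3 counts, cover counting error only. The members and lists were chosen with earlier results of these data known. Values in every library are given for the 3 members of each role with the largest difference between untreated genotypes among those called anywhere with a mean of at least 10 counts, and statistics for every such member. Of each pathway list up to 3 rises and 3 falls are named. Alternatives were DESeq2 1.42.0 and its size factors, other filters and limits, summed transcripts, only the groups compared, a replicate block, and leaving out each library. On simulated counts edgeR recovered 200 of 200 genes changed 2-fold between untreated genotypes and 177 of 200 for the interaction. It also called 1 and 16 unchanged genes in these comparisons. The changed genes were drawn from well-counted ones and all genes had the same spread, so the low-count members are not covered. Replicates of a group differed by more than sampling noise (chi-square per gene 3.52 to 12.1). The label names a Qiagen kit for RNA and the methods another maker's.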

Additional observations from a re-analysis of the deposited data

Results flagged for a closer look

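For 6 of the 35 tested members the H2O2 effect differed between genotypes by the interaction test in edgeR (Benjamini-Hochberg adjusted p under 0.05). At this limit 10.2% of all genes passed. Differences are given as the log2 effect in TβRII-/- minus that in TβRII flox/flox PT cells. For Wnt5a the difference was 0.87 ± 0.13 SE (adjusted p = 3.60e-05) and for Wnt10a -5.35 ± 1.61 (adjusted p = 0.03), the latter a fitted value against libraries at 0. The other 4 were under the 1.5-fold limit. Wnt7b, the ligand next in level after Wnt16, differed by -0.57 ± 0.08 (adjusted p = 1.43e-05): H2O2 changed it by 0.40 ± 0.06 in TβRII flox/flox and -0.17 ± 0.06 in TβRII-/- PT cells. Kremen1 differed by -0.41 ± 0.09 (adjusted p = 0.00316), from 0.21 ± 0.06 to -0.21 ± 0.07. Fzd7 differed by -0.30 ± 0.09 (adjusted p = 0.0338) and Tcf7l2 by 0.33 ± 0.10 (adjusted p = 0.0339).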

How the results depend on the processing

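The results were recomputed under 21 alternatives, of which 12 left out a library. Of 56 calls of a named member in a comparison, 27 were tested and called in all 21, 19 were called wherever they could be tested but were not tested in all, 10 were lost in at least 1 in which they were tested, and 0 changed direction. Counts of called members are given in the order genotype untreated, genotype with H2O2, H2O2 in TβRII flox/flox, H2O2 in TβRII-/- PT cells and interaction, against 18, 19, 7, 10 and 2. With a minimum of 10 counts in each of the 12 libraries, which leaves 26 members tested, they were 11, 12, 3, 6 and 2. The filter drops Wnt4, Wnt10a, Sfrp2 and Rnf43, among others, and in the interaction Nkd2 came in for Wnt10a, so that 1 call was shared. At an adjusted p under 0.05 without the fold limit they were 29, 29, 21, 25 and 6. With transcripts summed, the interaction gave 4. Leaving out each library gave 18 to 20, 18 to 23, 5 to 8, 6 to 10 and 1 to 3. The lowest values for H2O2 in TβRII-/- PT cells, 6, and for the interaction, 1, came without replicate 2 of untreated TβRII-/- and of H2O2-treated TβRII flox/flox PT cells. The cause was not tested beyond the fewer genes or libraries these settings leave. Without a filter on low counts 22, 20, 8, 10 and 2 were called, the added ones being Rspo3, Lef1, Rspo2, Nkd1 and Wnt8b, all of at most 20 counts.

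Replicate numbers did not pair the libraries: correlations of same-numbered libraries ran from -0.0832 to 0.0542 over 18 pairs, and 3 of 12 libraries correlated best with their own number. With the replicate block 18, 19, 8, 10 and 2 members were called. Depth limits what can be said of the 26 untested members and of Wnt2, Wnt5b, Tcf7l1, Lgr6, Sfrp2 and Wnt10a, which had few counts in at least 1 group, so that the large folds of Sfrp2 and Wnt10a are imprecise.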
